A study of Canis lupus familiaris with 6 samples.

Results

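Glycolysis is the pathway by which cells split glucose into pyruvate, and its transcripts are among the abundant ones of cultured keratinocytes. The genes described here are the main glucose transporter of the epidermis, SLC2A1 (also called GLUT1), and 9 enzymes that lead from glucose to lactate, HK1, HK2, PFKP, ALDOA, TPI1, PGK1, ENO1, PKM and LDHA. They were chosen by gene symbol, and all 10 were found among the 35969 genes with a symbol in the gene table. The cells were CPEK, a canine epidermal keratinocyte line labelled as wild type, grown in serum-supplemented medium to near confluence. The dCAMP group was exposed directly to cold atmospheric microwave plasma (CAMP), an ionized stream of argon, for 30 s, and the gas group received the gas without plasma for 30 s. In both groups the medium was then changed and total RNA was collected 24 h later. RNA-Seq of stranded mRNA libraries was performed for 3 gas-treated and 3 dCAMP-treated samples, and the question was how the steps of glycolysis and their isoenzymes differed between the groups.

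In the preparatory steps of glycolysis, hexokinase traps glucose inside the cell as glucose 6-phosphate, phosphofructokinase commits it to breakdown, and aldolase and triosephosphate isomerase yield the 3-carbon sugars. In the later steps, phosphoglycerate kinase and pyruvate kinase make ATP, with enolase between them, and lactate dehydrogenase turns pyruvate into lactate and restores the NAD+ that the pathway needs. Several steps are carried out by isoenzymes from separate genes that differ in tissue and regulation. Basal keratinocytes are known for a high use of glucose and for SLC2A1 at their surface, and several of these genes are known targets of the transcription factors HIF1A and MYC.

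The libraries held 43084921 to 54082634 counts assigned to genes. Of 14693 genes that passed the filter on low counts, 0 had an adjusted p under 0.05 (0.0%; edgeR's quasi-likelihood test, Benjamini-Hochberg adjusted), 3042 had an unadjusted p under 0.05, and the smallest adjusted p was 0.135. DESeq2 gave 301 genes with an adjusted p under 0.05. The gas libraries lay further apart than the dCAMP libraries. Gas 1 was the gas library farthest from the dCAMP mean in 74.3% of genes tested, and gas 3 was the nearest in 68.8%, so values of the 10 genes without gas 1 and without gas 3 are given beside the results. Leaving out gas 3 takes away the gas library nearest the dCAMP mean in most genes. Without it, 4955 of 14960 genes tested had an adjusted p under 0.05 in the edgeR test. There was 1 such gene of 14975 without gas 1, and there were 0 without gas 2. All 10 keratinocyte markers were tested, with KRT5 at 21840 to 28140 CPM (the count relative to the normalized size of the library). The summed level of the 10 was 49820 to 60360 CPM in gas and 46610 to 49640 CPM in dCAMP. KRT5 and KRT14 made up most of that sum, and their log2 fold changes, dCAMP over gas, were −0.20 and −0.30. The log2 fold change was below 0 in 6 of the 10 markers and above 0 in 4, with DSG3 highest at 0.52. Markers of other cells were low. The summed CPM was 5.19 to 5.78 in gas and 5.53 to 5.83 in dCAMP for the 7 fibroblast markers (DCN, LUM and PDGFRB at 0), 5.74 to 9.13 and 8.87 to 9.79 for the 5 melanocyte markers (TYR and DCT at 0), 0.49 to 1.77 and 0.607 to 1.28 for the 4 immune markers (PTPRC, CD3E and LCP1 at 0), and 15.6 to 18.4 and 18.8 to 24.7 for the 4 endothelial markers (PECAM1 at 0). The statistical methods speak of independent experiments without naming the RNA-Seq, and the labels do not say whether the libraries of a group came from separate cultures, so p-values measure the spread between these libraries, which may be technical.

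All 10 genes were tested. The mean CPM of 9 genes was lower in the dCAMP-treated cells than in the gas control, and that of LDHA was higher. The median log2 fold change of the 10 genes was −0.19, against 0.03 over all genes tested. A lower level in dCAMP, at an unadjusted p under 0.05, was seen in 4 of the 10 genes, PFKP, ALDOA, TPI1 and ENO1, where 13.9% of all genes tested met the same rule. A higher level at that threshold was seen in 0 of the 10 genes, against 6.81% of all genes. By the edgeR test, after the Benjamini-Hochberg adjustment, 0 of the 10 genes had an adjusted p under 0.05, and their adjusted p-values ran from 0.221 to 0.58. None of the 10 reached a 2-fold change, a size that 1.09% of all genes reached with an unadjusted p under 0.05. The 3 dCAMP libraries lay below all 3 gas libraries in the same 4 genes (20.9% of all genes) and above them in 1, LDHA (19.0% of all genes).

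**Figure D1:**
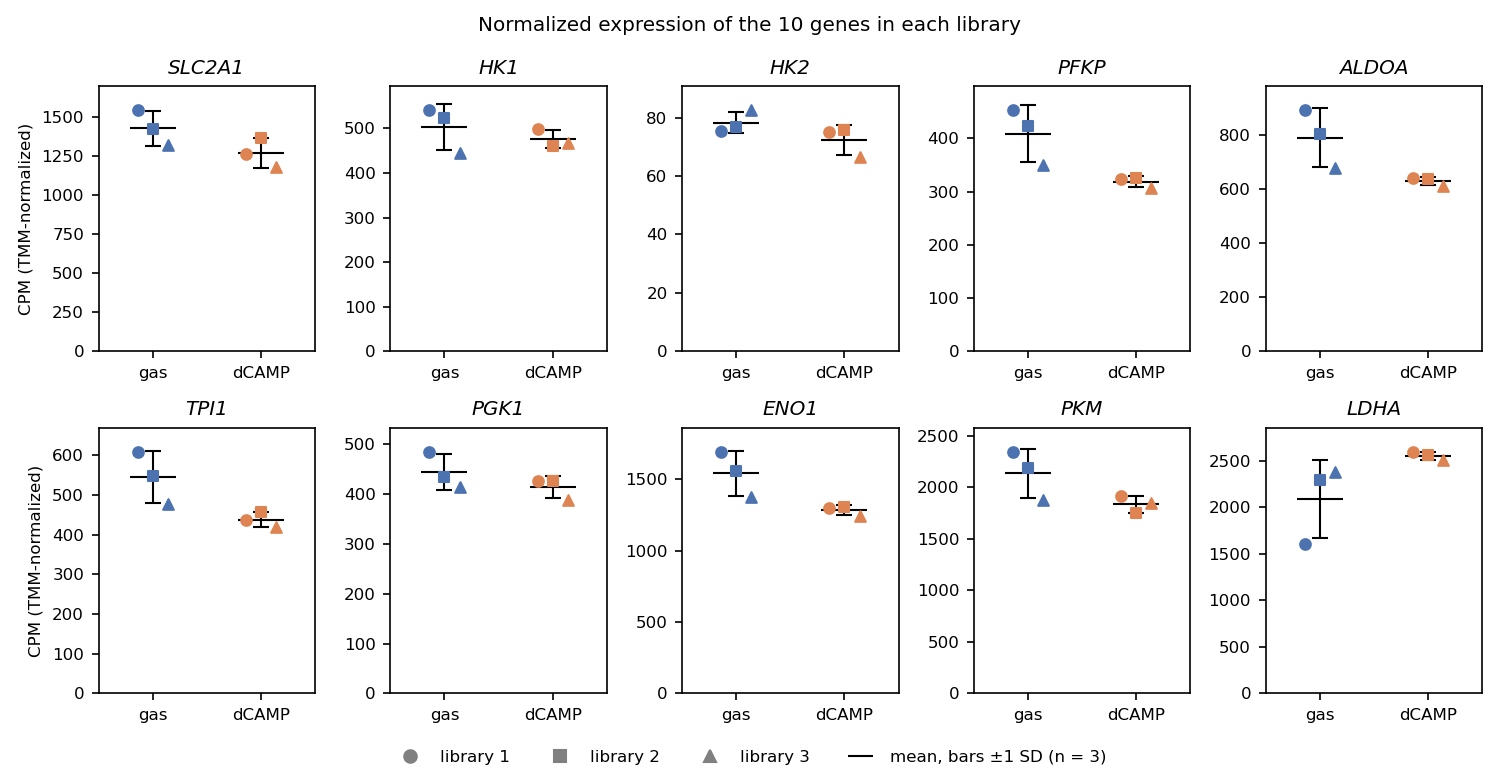
Normalized expression of the 10 genes in the 3 gas and 3 dCAMP libraries, as TMM-normalized CPM on axes that start at 0. Each point is 1 library, and horizontal lines with bars give the mean ± 1 SD. The groups do not overlap in PFKP, ALDOA, TPI1 and ENO1, where dCAMP is lower, and in LDHA, where it is higher; in most panels the gas libraries are more scattered than the dCAMP libraries.

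The groups overlapped in the genes of glucose uptake and trapping. SLC2A1 (gene 482437, CanFam3.1 chr15:463307-493145), which carries glucose across the plasma membrane, was at 1546, 1422 and 1321 CPM in gas libraries 1, 2 and 3 and at 1265, 1368 and 1179 CPM in the dCAMP libraries. The dCAMP 2 library lay above gas 3, so the groups overlapped. The mean went from 1430 ± 113 to 1271 ± 94.5 CPM (SD, n = 3 each), a log2 fold change of −0.17 with a standard error of 0.09 (edgeR adjusted p = 0.294). Without gas 3 the log2 fold change of SLC2A1 was −0.27 (edgeR adjusted p = 0.0583), and without gas 1 it was −0.13.

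Of the hexokinases, HK1 is the housekeeping form and HK2 the form that insulin, growth factors and low oxygen are known to induce. HK1 (gene 479234, chr4:20396761-20516889) was at 541.1, 523.8 and 445.0 CPM in gas and at 499.0, 461.2 and 468.1 CPM in dCAMP. All 3 dCAMP libraries fell between gas 3 and gas 2, and the log2 fold change of −0.08 was smaller than its standard error of 0.1. For HK1 it was −0.04 without gas 1, −0.21 without gas 3 (edgeR adjusted p = 0.0625), and −0.21 after a trend of counts on gene length had been taken out of every library. HK2 (gene 100856448, chr17:48287367-48329470) was much less abundant, at 75.5, 76.9 and 82.6 CPM in gas and 75.0, 75.7 and 66.6 CPM in dCAMP. It was the 1 gene of the 10 in which gas 3 was the highest gas library and the farthest from the dCAMP mean. Its log2 fold change was −0.11 with a standard error of 0.09 (edgeR adjusted p = 0.43), −0.31 with the length trend taken out, −0.16 without gas 1 and −0.12 without gas 3.

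The 3 genes with the most negative log2 fold changes catalyse consecutive steps. PFKP (gene 478019, chr2:32220876-32254354), the platelet-type phosphofructokinase, which adds the next phosphate to the hexose, was at 452.9, 423.6 and 350.4 CPM in gas and at 324.0, 324.9 and 306.8 CPM in dCAMP. The highest dCAMP library lay below the lowest gas library, gas 3, by a narrower gap than that between gas 3 and gas 2. The mean differed by −22.1%, from 409 ± 52.8 to 318.6 ± 10.2 CPM (SD, n = 3 each), with a log2 fold change of −0.36 and a standard error of 0.11 (edgeR unadjusted p = 0.0156, adjusted p = 0.221). The log2 fold change of PFKP was −0.30 without gas 1 (edgeR adjusted p = 0.208) and −0.51 without gas 3 (edgeR adjusted p = 0.0203).

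ALDOA (gene 479787, chr6:18077241-18083053) encodes the muscle-type aldolase that most cells also use to cleave fructose 1,6-bisphosphate. It was at 890.7, 802 and 675.4 CPM in gas and at 639.8, 635.3 and 612.3 CPM in dCAMP. The 3 dCAMP libraries again lay close together below gas 3. The mean of ALDOA was 789.4 ± 108 CPM in gas and 629.1 ± 14.8 CPM in dCAMP (SD, n = 3 each), and the log2 fold change was −0.33 with a standard error of 0.11 (edgeR unadjusted p = 0.0242, adjusted p = 0.222). Without gas 1 it was −0.25 (edgeR adjusted p = 0.222), and without gas 3 it was −0.47 (edgeR adjusted p = 0.0205).

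TPI1 (gene 477711, chr27:38154519-38157900), the triosephosphate isomerase that interconverts the products of aldolase, was at 607.5, 546.8 and 476.9 CPM in gas and at 436.7, 457.1 and 418.1 CPM in dCAMP. Its groups did not overlap, and the gap between dCAMP 2 and gas 3 was narrower than any gap between 2 gas libraries. The log2 fold change of TPI1 was −0.31 with a standard error of 0.11 (edgeR unadjusted p = 0.0231, adjusted p = 0.221). It was −0.25 without gas 1 (edgeR adjusted p = 0.218) and −0.45 without gas 3 (edgeR adjusted p = 0.022). The locus of TPI1 overlaps SPSB2, whose counts came to 1.12 to 1.47% of those of TPI1.

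Of the later enzymes, ENO1 differed without overlap between the groups, and PGK1 and PKM did not. PGK1 (gene 480964, chrX:60374743-60396244), phosphoglycerate kinase, was at 484.5, 435.2 and 414.9 CPM in gas and 426.0, 427.1 and 389.0 CPM in dCAMP. Both dCAMP 1 and dCAMP 2 lay between gas 3 and gas 2, and the log2 fold change of −0.10 was close to its standard error of 0.09 (edgeR adjusted p = 0.443). It was −0.06 without gas 1 and −0.20 without gas 3 (edgeR adjusted p = 0.115). TPI1 and GAPDH, the enzymes just upstream of PGK1, did not overlap.

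ENO1 (gene 479597, chr5:62300805-62314508), alpha-enolase, was at 1689, 1556 and 1378 CPM in gas and at 1301, 1308 and 1245 CPM in dCAMP. Every dCAMP library was below every gas library. The mean went from 1541 ± 156 to 1285 ± 34.8 CPM (SD, n = 3 each), with a log2 fold change of −0.26 and a standard error of 0.09 (edgeR unadjusted p = 0.0262, adjusted p = 0.223). Without gas 1 the log2 fold change of ENO1 was −0.21 (edgeR adjusted p = 0.226), and without gas 3 it was −0.38 (edgeR adjusted p = 0.0216). The table also holds LOC476315, named as enolase-like, with 20.04 to 20.84% of the counts of ENO1 and a log2 fold change of −0.26 (SE 0.09). How reads that match both genes were assigned is not given in the sources used here, so the level of ENO1 is uncertain by that share.

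PKM (gene 403874, chr30:35712853-35737643), the pyruvate kinase of most tissues other than liver and red cells, was at 2340, 2189 and 1872 CPM in gas and at 1911, 1746 and 1845 CPM in dCAMP. The groups overlapped because dCAMP 1 lay above gas 3. The log2 fold change of PKM was −0.22 with a standard error of 0.1 (edgeR unadjusted p = 0.0678, adjusted p = 0.256). It was −0.17 without gas 1 (edgeR adjusted p = 0.312) and −0.35 without gas 3 (edgeR adjusted p = 0.0235).

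LDHA (gene 476882, chr21:40829844-40840947), the lactate dehydrogenase subunit that favours the making of lactate, went the other way. It was at 1609, 2289 and 2375 CPM in gas and at 2590, 2563 and 2502 CPM in dCAMP. The 3 dCAMP libraries lay above all gas libraries and close together, while gas 1 stood far below gas 2 and gas 3. The mean was 2091 ± 420 CPM in gas and 2552 ± 45.1 CPM in dCAMP (SD, n = 3 each), 22.1% higher, and the log2 fold change of 0.29 had a standard error of 0.15 (edgeR unadjusted p = 0.103, adjusted p = 0.285). The log2 fold change of LDHA was 0.11 without gas 1 and 0.34 without gas 3 (edgeR adjusted p = 0.11). The 4 genes named as LDHA-like or related held 0.0731 to 0.179% of its counts.

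**Figure D2:**
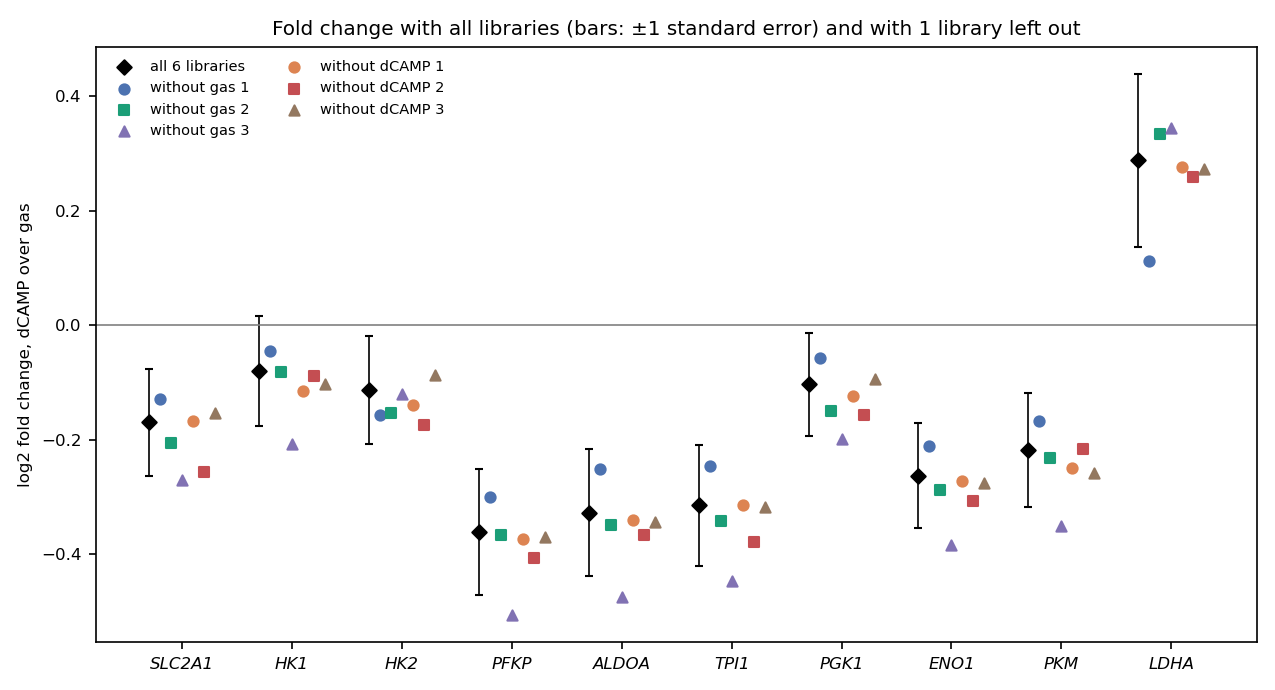
The log2 fold change of each of the 10 genes, dCAMP over gas, with all 6 libraries (diamonds, with bars of ± 1 standard error) and with each library left out in turn (coloured points). The signs are the same in every fit; the values without gas 3 are the most negative of each gene except HK2 and LDHA, and LDHA drops from 0.29 to 0.11 without gas 1.

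The differences within the gas group were of the same size as those between groups. In 9 of the 10 genes gas 3 was the gas library nearest the dCAMP mean, and in 9 of 10 gas 1 was the farthest, HK2 being the exception both times. Between gas 3 and gas 1 the log2 difference of CPM was −0.37 in PFKP, −0.40 in ALDOA, −0.35 in TPI1 and 0.56 in LDHA. Between the dCAMP mean and gas 3 it was −0.14 in PFKP, −0.10 in ALDOA, −0.13 in TPI1 and 0.10 in LDHA. So in these 4 genes gas 3 differed more from gas 1, given the same gas, than from the mean of the dCAMP libraries, in the same direction. The part that this difference among gas libraries has in the values of the comparison was not tested.

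High abundance is a trait that 9 of the 10 genes share, and the background differs among abundant genes. The 10% of genes with the highest mean expression, at least 136.2 CPM, were 1470 genes, including all of the 10 except HK2. Their median log2 fold change was −0.10, and 58.8% had a log2 fold change below 0, against 47.6% of all genes tested. Among these abundant genes 30.3% were lower with an unadjusted p under 0.05 and 38.6% had all dCAMP libraries below all gas libraries, against 4.63% that were higher with an unadjusted p under 0.05. Of the 9 genes in this abundant set, LDHA alone had a log2 fold change above 0. All the others were below 0, as were 58.8% of the abundant genes. In bulk RNA, fewer cells of a type and less RNA per cell cannot be told apart.

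Steps were compared on the deposited TPM scale, which corrects for length and lets genes be compared within a library. In gas, the mean TPM of the 10 genes ran from 2181 for LDHA through 1783 for PKM, 1482 for ENO1, 1070 for SLC2A1, 947.5 for ALDOA, 693.6 for TPI1, 435.5 for PGK1, 287.4 for PFKP and 263.2 for HK1 to 28.9 for HK2. Each neighbour in this order was above the next in 3 of 3 gas libraries, except that LDHA was above PKM in 2 of 3. The ranges of the gas libraries overlapped between LDHA and PKM, PKM and ENO1, SLC2A1 and ALDOA, and PFKP and HK1. In dCAMP, LDHA at 2768 to 2820 TPM stood clear of PKM at 1513 to 1666 TPM, and PKM of ENO1 at 1269 to 1307 TPM. SLC2A1 at 935 to 1062 TPM likewise stood above ALDOA at 779.6 to 801.8 TPM. HK1 at 254.2 to 275.8 TPM stood above PFKP at 228.6 to 237.6 TPM, so that PFKP was above HK1 in 3 of 3 gas libraries and in 0 of 3 dCAMP libraries. The other neighbours kept their order in 3 of 3 dCAMP libraries. The mean TPM of HK1 was 263.2 in gas and 264.0 in dCAMP, so HK1 was not lower in dCAMP on this scale, unlike in CPM.

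Summed over isoenzymes, the TPM of a step spanned a wide range, and the step of glyceraldehyde-3-phosphate dehydrogenase (GAPDH) was the highest. GAPDH, which is not among the 10 genes, was at 6949, 6326 and 5392 TPM in gas and at 5006, 4925 and 4776 TPM in dCAMP, without overlap. The phosphofructokinase step (PFKL, PFKM and PFKP) was at 421.3, 387.5 and 322.5 TPM in gas and at 319.9, 315.1 and 304.3 TPM in dCAMP, and the difference of the means was −17.0%. The dCAMP libraries were also below the gas libraries in triosephosphate isomerase, where the mean went from 693.6 to 584.1 TPM. The same held for enolase (ENO1, ENO2 and ENO3, without LOC476315), where it went from 1499 to 1310 TPM.

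Lactate dehydrogenase was the step with higher TPM in every dCAMP library, at 2090, 2881 and 3062 in gas and 3376, 3323 and 3342 in dCAMP, a mean 25.0% higher. The hexokinase step was at 292.2 ± 19.4 TPM in gas and 292 ± 11.3 TPM in dCAMP (SD, n = 3 each), and phosphoglycerate mutase (PGAM1) at 943 ± 18.6 and 965.2 ± 18.5 TPM. Glucose transport (SLC2A1 and SLC2A3 only), phosphoglucose isomerase (GPI), aldolase, phosphoglycerate kinase and pyruvate kinase overlapped between the groups. Their mean changes were −6.89, −5.14, −13.5, −2.57 and −9.9% in that order. No test was made on the steps, and a step is named lower or higher here only where the libraries did not overlap. In CPM, 20.9% of all genes tested had dCAMP below gas without overlap and 19.0% had it above. Of the abundant genes, 38.6% had it below. The share over all genes on the TPM scale is not given here.

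**Figure D3:**
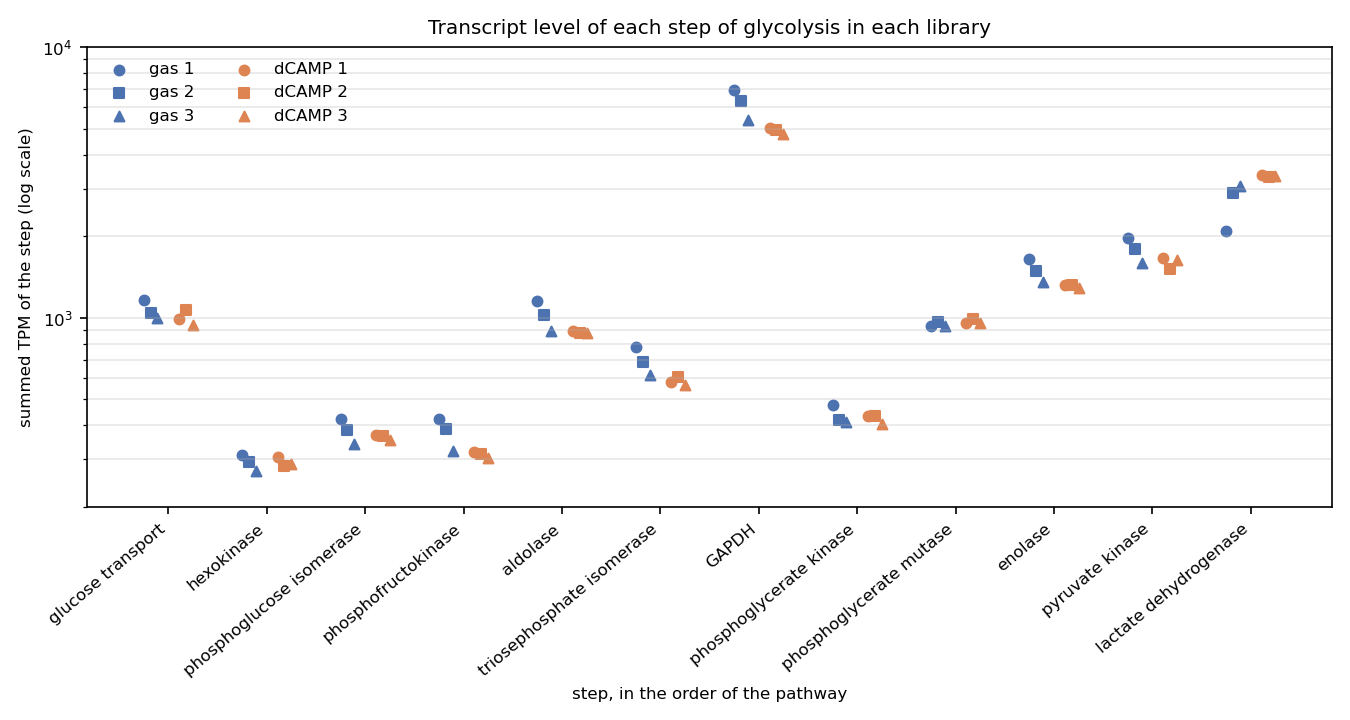
Summed TPM of the isoenzymes of each step, in the order of the pathway, on a logarithmic axis, with 1 point for each gas and each dCAMP library. dCAMP lies below gas without overlap in phosphofructokinase, triosephosphate isomerase, GAPDH and enolase, and above it in lactate dehydrogenase.

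Summed, the 10 genes held 0.942, 0.929 and 0.881% of all TPM in gas and 0.914, 0.901 and 0.888% in dCAMP, and the groups overlapped. Without LDHA the other 9 held 0.699 ± 0.0714% in gas and 0.622 ± 0.0106% in dCAMP (SD, n = 3 each), again with overlap. The ratio of LDHA to PKM, a comparison chosen after the values were seen and so given without a test, was 0.86, 1.31 and 1.58 on the TPM scale in gas and 1.69, 1.83 and 1.69 in dCAMP. LDHA was thus below PKM in gas 1 alone and above it in the other 5 libraries.

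Isoenzyme shares were computed as the percent of the summed FPKM of a step that 1 isoenzyme held in each library, and 6 shares were compared by an exact two-sided permutation test over the 20 assignments of libraries, whose smallest possible p is 0.1. At that size the design cannot reach 0.05 for any share. ALDOA held 93.3, 92.7 and 92.3% of aldolase in gas and 89.4, 90.6 and 88.8% in dCAMP, with all dCAMP libraries lower. The difference of means was −3.16 percentage points (exact permutation p = 0.1, adjusted p = 0.15 over 6 shares). The remainder was ALDOC, the brain-type aldolase, at 72.8, 71.8 and 63.0 CPM in gas and 84.6, 73.7 and 87.3 CPM in dCAMP, with a log2 fold change of 0.24 (SE 0.11, edgeR adjusted p = 0.254).

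LDHA held 80.8, 81.4 and 82.0% of the sum with LDHB, the heart-type subunit, in gas and 83.5, 83.6 and 82.8% in dCAMP. All dCAMP libraries were higher, by 1.91 percentage points in the mean (exact permutation p = 0.1, adjusted p = 0.15). LDHB itself was at 291.6, 399.9 and 398.8 CPM in gas and 389.9, 385.1 and 396.6 CPM in dCAMP. Gas 1 was low in LDHB as in LDHA, and the log2 fold change of LDHB was 0.10 with all libraries and −0.05 without gas 1.

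PFKP held 76.1, 75.4 and 77.3% of phosphofructokinase in gas and 74.3, 75.2 and 75.1% in dCAMP, a difference of −1.39 percentage points without overlap (exact permutation p = 0.1, adjusted p = 0.15), which was −0.86 percentage points without gas 3. PFKL, the liver type, had a log2 fold change of −0.30 (SE 0.16) and PFKM, the muscle type, one of −0.08 (SE 0.14), and neither had an unadjusted p under 0.05 in the edgeR test. SLC2A1 held 99.9 ± 0.0259% of the sum with SLC2A3 in gas and 99.8 ± 0.0244% in dCAMP (SD, n = 3 each), again without overlap (exact permutation p = 0.1, adjusted p = 0.15). The change is small because SLC2A3, a transporter of high affinity, was at 1.39 to 1.94 CPM in gas and 2.21 to 3.1 CPM in dCAMP. Other transporters were left out of this share. Among them, SLC2A8 had a mean of 14.48 TPM in gas and 14.55 TPM in dCAMP, against 1.31 and 2.04 TPM for SLC2A3.

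HK2 held 9.03, 9.46 and 11.3% of hexokinase in gas and 9.48, 10.2 and 9.04% in dCAMP. The groups overlapped, the difference was −0.36 percentage points (exact permutation p = 0.9, adjusted p = 0.9), and it was 0.34 percentage points without gas 3. ENO1 held 98.8 to 99% of the sum of ENO1, ENO2 and ENO3 in gas and 98.7 to 98.9% in dCAMP, with overlap. The difference was −0.13 percentage points (exact permutation p = 0.2, adjusted p = 0.24). The enolase-like LOC476315 was not counted in this share. In each of the 6 steps the isoenzyme that held most of the transcripts was the same in all libraries.

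**Figure D4:**
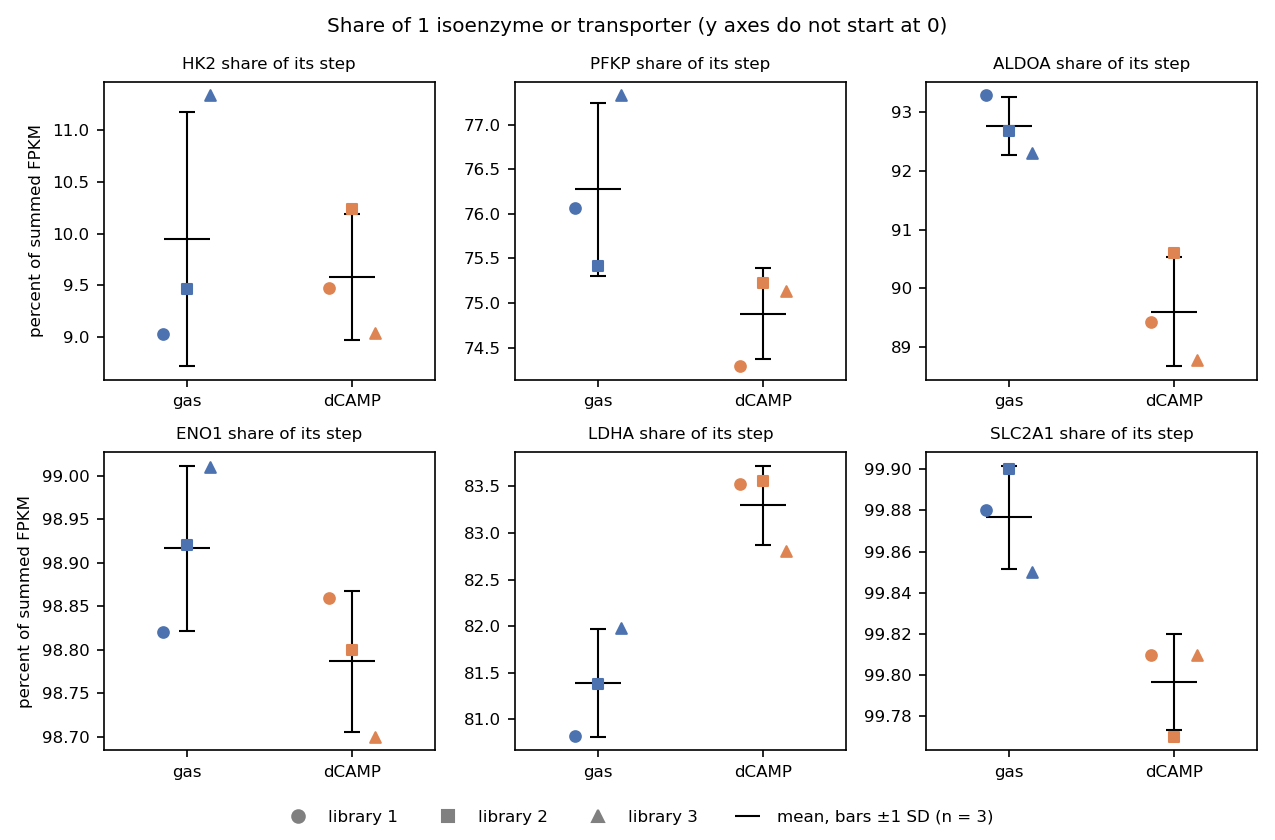
Percent of the summed FPKM of a step held by 1 isoenzyme or transporter in each library, with the mean and ± 1 SD; the vertical axes do not start at 0, so that differences of a few percentage points can be seen. The dCAMP libraries lie below the gas libraries for PFKP, ALDOA and SLC2A1 and above them for LDHA, and overlap them for HK2 and ENO1.

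The shares of transcript variants overlapped between the groups with 1 exception among those of at least 1% of a gene's counts. HK2, TPI1, PGK1 and ENO1 have 1 transcript each in the table, and a single transcript held 95.8 to 98.3% of the counts of PFKP (variant X2), 98 to 99.9% of those of ALDOA (X2) and 98.9 to 100% of those of SLC2A1. HK1 was divided between variant X1 and variant X5, which begins at another position, and X5 held 31, 30.6 and 43.3% of its counts in gas and 39.3, 40.2 and 38.1% in dCAMP. Gas 3 was the highest of all 6 libraries and the other gas libraries the lowest, so the groups overlapped. PKM was divided between variant X4 (68.9 to 74.0% in gas, 68.4 to 73.0% in dCAMP) and variant X3 (25.4 to 30.4% and 26.3 to 31.0%), with overlap. PKM is known for 2 isoforms, M1 and M2, made by a choice of exon, and the variants could not be matched to them here. LDHA variant X3 held 29.4, 26.1 and 27.8% of the counts of LDHA in gas and 25.6, 25.7 and 25.3% in dCAMP, without overlap. The main variant X2 of LDHA held 70.1, 73.8 and 71.9% in gas and 74.0, 73.8 and 74.3% in dCAMP, where gas 2 overlapped the dCAMP range. No test was made on the variants, whose counts are split by model among overlapping transcripts. The share of all transcripts without overlap is not given here, so the 1 exception has no background beside it. Its lowest gas library, at 26.1%, was close to its highest dCAMP library, at 25.7%.

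The other genes of the pathway gave a mixed picture. The counts of lower and higher genes in the lists below stand against 13.9% lower and 6.81% higher over all genes tested. Of 18 other glycolysis enzymes, 16 were in the table and 11 were tested, 1 of them lower and 1 higher with an unadjusted p under 0.05, with a median log2 fold change of −0.08. The lower gene was GAPDH, at 4267, 3982 and 3289 CPM in gas and 2963, 2931 and 2783 CPM in dCAMP, with a log2 fold change of −0.41 (SE 0.11, edgeR adjusted p = 0.221). GAPDH is often taken as a reference gene, and 16 genes with names like it held 5.24 to 5.72% of its counts. The higher gene was BPGM, which makes 2,3-bisphosphoglycerate, at 4.56 to 9.41 CPM in gas and 10.3 to 11.7 CPM in dCAMP, with a log2 fold change of 0.68 (SE 0.26, edgeR adjusted p = 0.234), which was 0.44 without gas 1. The median of the list was −0.14 without gas 2, −0.14 without dCAMP 1, −0.13 without dCAMP 3 and −0.20 without gas 3. PKLR and LDHC were at 0 in all libraries.

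Glucose and lactate transport held 12 listed genes, of which 10 were tested, with 1 lower and 3 higher at an unadjusted p under 0.05 and a median log2 fold change of 0.22. The lower gene was BSG, the chaperone of the lactate transporters, with a log2 fold change of −0.28 (SE 0.11). The higher genes were SLC2A3 (0.57, SE 0.21), SLC2A12 (0.74, SE 0.23) and SLC16A7, a monocarboxylate transporter (0.89, SE 0.36), and each was under 6 CPM in every library. SLC2A13, a proton-coupled inositol transporter, had a value of 0.81 (SE 0.46; 1.40 without gas 3), and SLC2A6 one of −0.25 (SE 0.32; −0.14 without gas 3), both under 1 CPM. The median of the list was 0.13 without gas 1, 0.13 without dCAMP 2 and 0.07 with the length trend taken out. The lactate transporter SLC16A1 was at 65.4, 82.5 and 120.8 CPM in gas and 106.5, 126.7 and 117.4 CPM in dCAMP, with overlap and a log2 fold change of 0.38 (SE 0.23; 0.19 without gas 1 and 0.61 without gas 3). SLC16A3, which exports lactate, was at 12.7 to 16.7 CPM in gas and 14.3 to 17.4 CPM in dCAMP.

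Of 19 listed regulators, 15 were tested, with 0 lower and 1 higher at an unadjusted p under 0.05 and a median log2 fold change of 0.31. That median was 0.07 without gas 1, 0.14 with the length trend taken out and 0.15 with voom weights. The higher gene was TIGAR, a phosphatase known to lower fructose 2,6-bisphosphate, the activator of phosphofructokinase, at 57.4, 86.2 and 118.6 CPM in gas and 139.6, 146.2 and 143 CPM in dCAMP (log2 fold change 0.71, SE 0.25, edgeR adjusted p = 0.224; 0.47 without gas 1). HIF1A was at 47.6, 140.2 and 199.8 CPM in gas and 214.1, 203.9 and 223.3 CPM in dCAMP, and its log2 fold change of 0.73 had a standard error of 0.47 and was 0.32 without gas 1 and 1.14 without gas 3. Gas 1 held less than 50 CPM of HIF1A and gas 3 was close to the dCAMP libraries. LDHA had the same order of gas libraries, as did TIGAR and PRKAA1 of this list. Over all genes tested, gas 1 was the farthest from the dCAMP mean in 74.3% and gas 3 the nearest in 68.8%. A link between HIF1A and LDHA was not tested. MYC was at 151.5 to 203.7 CPM in gas and 133.9 to 166.4 CPM in dCAMP (log2 fold change −0.27, SE 0.14; −0.16 without gas 1 and −0.41 without gas 3), and PFKFB4, a maker of fructose 2,6-bisphosphate, had a log2 fold change of −0.24 (SE 0.12; −0.36 without gas 3). PRKAA2, a catalytic subunit of the energy sensor AMPK, had the largest difference of the list, at 0.691 to 3.32 CPM in gas and 3.86 to 4.34 CPM in dCAMP (log2 fold change 1.08, SE 0.49; 0.67 without gas 1 and 1.63 without gas 3). PRKAA1, the other catalytic subunit, was at 8.66, 24.7 and 50.2 CPM in gas and 46.1, 54.2 and 51.3 CPM in dCAMP, with overlap and a log2 fold change of 0.86 (SE 0.56; 0.42 without gas 1 and 1.55 without gas 3).

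The 13 hypoxia-induced genes outside glycolysis were all tested, and 2 were lower (P4HA2 at −0.25 and DDIT4 at −0.55 on the log2 scale) and 2 higher (BNIP3L at 0.87 and EGLN3 at 0.64) with an unadjusted p under 0.05. Their median log2 fold change was 0.03 and turned to −0.06 with upper-quartile factors and to −0.03 without gas 3 or without dCAMP 2. VEGFA, an angiogenic factor, had a log2 fold change of −0.43 (SE 0.18), and P4HA1, a collagen prolyl hydroxylase, one of 0.66 (SE 0.37; 0.31 without gas 1 and 1.02 without gas 3). CA9, a widely used hypoxia marker, was at 1.4 to 2.73 CPM in all libraries. The members of the list did not share 1 direction.

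In the pentose phosphate pathway, which branches from glucose 6-phosphate and yields NADPH and ribose, all 7 genes had a log2 fold change below 0, with a median of −0.28 (−0.45 without gas 3) and RPE nearest to 0 at −0.01. RPIA (−0.27, SE 0.09) and TKT (−0.30, SE 0.11) had an unadjusted p under 0.05. TKT, transketolase, was at 1844, 1659 and 1383 CPM in gas and 1381, 1299 and 1301 CPM in dCAMP, so that gas 3 and dCAMP 1 nearly met. TALDO1, transaldolase, had a log2 fold change of −0.30 (SE 0.13; −0.20 without gas 1 and −0.45 without gas 3).

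Of the 6 gluconeogenesis genes, 3 were tested and 2 were lower at an unadjusted p under 0.05. PCK2, the mitochondrial phosphoenolpyruvate carboxykinase, was at 208.3, 169.7 and 147.6 CPM in gas and 106.3, 89.1 and 109.9 CPM in dCAMP, with a log2 fold change of −0.78 (SE 0.15, edgeR adjusted p = 0.221). G6PC3, a glucose-6-phosphatase of most tissues, had a log2 fold change of −0.31 (SE 0.11), and FBP1, under 1 CPM, one of 0.28 (SE 0.6; −0.10 without gas 3). The median over the 3 genes was −0.31. Among the 10 genes for pyruvate entry to mitochondria (the carrier, the pyruvate dehydrogenase complex, its phosphatases and pyruvate carboxylase), 0 were lower and 0 higher at an unadjusted p under 0.05, with a median log2 fold change of 0.18 (0.05 without gas 1). The 2 largest were DLAT (0.45, SE 0.26; 0.19 without gas 1) and DLD (0.43, SE 0.23; 0.20 without gas 1), both subunits of the dehydrogenase complex. The 2 lowest were PC, pyruvate carboxylase, at −0.09 (SE 0.11; −0.21 without gas 3) and PDHA1, a subunit of the same complex, at −0.05 (SE 0.08). Leaving out single libraries moved the counts of all these lists. Without gas 3, 5 of the other glycolysis enzymes and 6 of the pentose phosphate genes were lower at an unadjusted p under 0.05, and 5 transport genes, 5 regulators, 4 genes of pyruvate entry and 5 hypoxia-induced genes were higher. In that fit 25.5% of all genes were lower and 23.8% higher at the same threshold. Without gas 2, or without any 1 of the dCAMP libraries, 0 pentose phosphate genes were lower and 0 regulators were higher at that threshold. In those fits 1029 to 1444 of all genes were under it in either direction, against 3042 with all libraries.

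**Figure D5:**
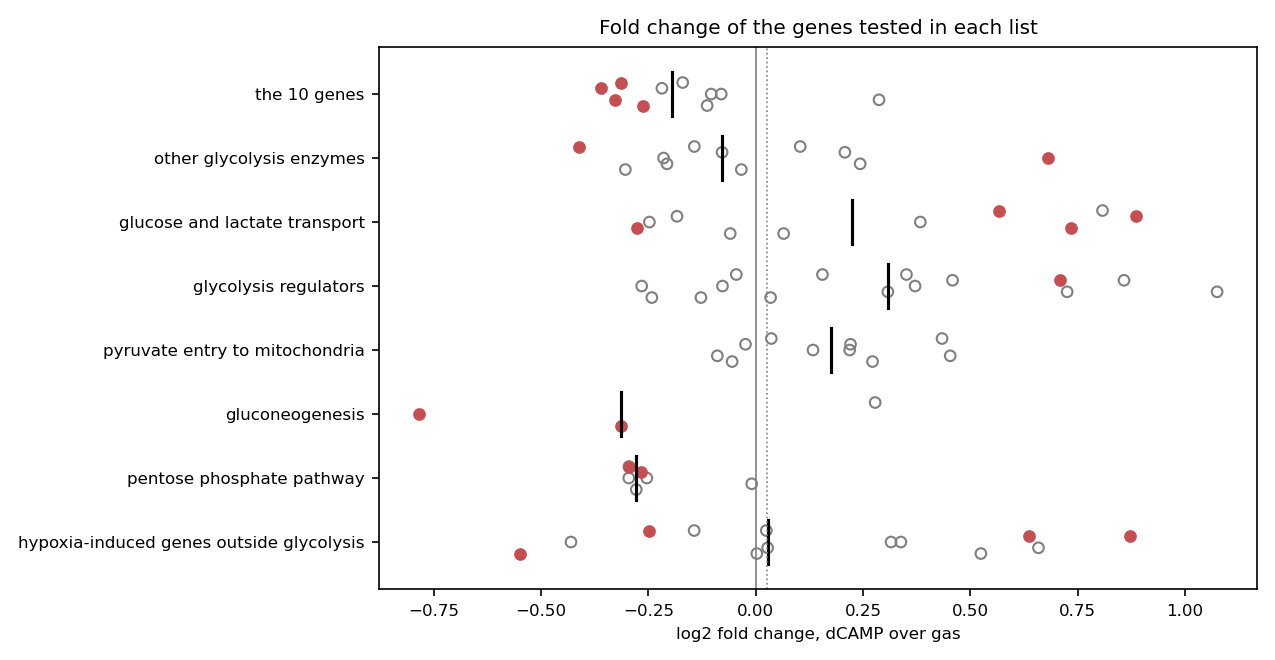
The log2 fold change, dCAMP over gas, of each gene tested in the list of 10 and in 7 lists of related genes. Filled points have an unadjusted p under 0.05 in the edgeR test, black bars are list medians, the solid vertical line marks 0 and the dotted line marks the median of all genes tested. The 10 genes lie left of 0 except LDHA, the pentose phosphate genes lie left of 0, and the transport and regulator lists spread to both sides.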

How the data were processed

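Total RNA of CPEK cells was sequenced from 3 gas-treated and 3 dCAMP-treated samples, grouped by the sample titles and treatment labels. According to the submitters' processing notes, reads were handled with FastQC 0.11.7 and Trimmomatic 0.38, mapped to CanFam3.1 with HISAT2 2.1.0 and summarized over known transcripts with StringTie 2.1.3b. The authors deposited raw read counts per gene and per transcript. The authors scaled the deposited FPKM values to gene length and mapped fragments, and the deposited TPM values for length and to a common total per library. The annotation release and the treatment of reads on overlapping genes are not given in the sources used here.

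Counts were analysed with R 4.3.3 and edgeR 4.0.16 (TMM factors, filterByExpr, quasi-likelihood test of dCAMP against gas, Benjamini-Hochberg adjustment over all 14693 genes tested, log2 fold changes with a prior count of 2). The standard error is the log2 fold change divided by the square root of F. The 24 rows without a gene symbol, with 0.0042 to 0.0264% of the counts of a library, were left out. Depth was 43084921 to 54082634 counts per library. Isoenzyme shares used FPKM and exact permutation tests, and steps used TPM. The fits were tested on simulated data. The alternatives used DESeq2 1.42.0 and limma 3.58.1.

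The 10 genes were given, and genes of the related lists were named where they had an unadjusted p under 0.05 or were among the 2 largest differences in a direction. Isoenzymes of the same steps, SLC2A8, SLC16A1, SLC16A3, HIF1A, RPE and CA9 were added after their values were seen. The members and lists were chosen with earlier results of these data known. Locus coordinates were taken from the transcript table, in CanFam3.1. PGAM2 and ARNT were not analysed here, and G6PC1 was matched by its gene identifier. Whether same-numbered libraries were paired was checked by the correlation of their deviations from the group means, which was 0.13, 0.023 and 0.047, so the numbers were not taken to pair the samples.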

Additional observations from a re-analysis of the deposited data

How the results depend on the processing

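The sign of all 10 genes was the same in each of 16 alternative fits (160 log2 fold changes, 0 reversed), but the number of calls was not. With an adjusted p under 0.05, DESeq2 gave 301 genes (167 among genes with a count in every library) and limma on log2 of FPKM plus 0.1 gave 3. At that threshold limma's voom with sample quality weights gave 9005 of 14693 genes tested, with 8 of the 10 genes (all but HK2 and PGK1). The voom weights were 0.116, 7.14 and 0.19 for gas 1, 2 and 3 and 2.16, 1.37 and 2.15 for dCAMP 1, 2 and 3. Gas 2 thus held most of the weight of its group, so the voom calls do not rest evenly on 3 gas libraries. Leaving out 1 library gave 0 to 4955 genes and 0 to 5 of the 10 at an adjusted p under 0.05. Gas 3 was the library whose absence gave 4955 and 5 (PFKP, ALDOA, TPI1, ENO1 and PKM). Genes with an unadjusted p under 0.05 numbered 9586 with voom and 1029 to 7372 without 1 library. Lower genes of the 10 with an unadjusted p under 0.05 numbered 7 with voom, with 1 higher, where 9586 of 14693 genes had such a p in either direction. They numbered 0 to 7 without 1 library, with 7 without gas 3 (25.5% of all genes in that fit). Without dCAMP 2 they numbered 2, where 1444 of 14982 genes had such a p in either direction. Without dCAMP 1 they numbered 1 (1235 of 14931 genes). They numbered 0 without gas 2 (1243 of 14959 genes) and 0 without dCAMP 3 (1029 of 14911 genes). Genes at or over 2-fold and under an unadjusted p of 0.05, 160 in all, numbered 368 and 325 with DESeq2, 280 with no filter, 1007 with voom, 373 with FPKM plus 0.1 and 134 to 1519 without 1 library. The median log2 fold change of the 10 genes was −0.31 to −0.16 without 1 library, and that of the hypoxia-induced list (0.0279) was −0.0642 with upper-quartile factors, −0.0039 with voom and −0.0349 to 0.0943 without 1 library, negative without gas 3 and without dCAMP 2. The HK2 share differed by −0.82 to 0.34 percentage points without 1 library and was reversed without gas 3. With the replicate block, 435 genes were at or over 2-fold and under an unadjusted p of 0.05, 0 had an adjusted p under 0.05, and 4 of the 10 genes were lower with an unadjusted p under 0.05; samples of the same number shared only that number, and under the block no share could go below an exact p of 0.25. The causes of these changes were not tested. GC content was not corrected for.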
